A study of Rattus norvegicus with 6 samples.

Results

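The miRNAs described here come from imprinted loci other than the large Dlk1-Dio3 cluster, namely miR-296 and miR-298 of the Gnas locus, miR-335 of Mest, miR-483 of Igf2 and miR-675 of H19. They were picked from the deposited miRNA table by a rule on names, set with earlier results of these data known, and 7 of its 721 rows matched: rno-miR-296-5p and rno-miR-296-3p, both arms of rno-miR-298 and rno-miR-483, and rno-miR-335, which is listed without an arm (rno, for rat, is left out of the names from here on). There were 0 rows for miR-675. The 6 libraries were made from whole testis of Sprague-Dawley rats, 3 with diabetes induced by streptozotocin (STZ), a toxin of the insulin-producing beta cells, and 3 normal rats. Tissue was taken at week 8 after STZ. According to the study's methods the diabetic rats were first fed a high-fat diet, the controls were injected with citrate buffer, and the model was made in adult males; no genetic change is named for either group. The toxin given after the diet stands as a model of type 2 diabetes, and the diet of the controls is not stated. The labels do not tie the libraries to single rats, so p-values measure only the spread between these samples, which may be technical.

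Imprinted genes are expressed from the copy of 1 parent only, a state set by DNA methylation that is erased and laid down anew in germ cells. The imprints themselves were not measured in these adult testes. miRNAs lie inside or beside several imprinted genes. miR-296 and miR-298 are processed from neighbouring hairpins upstream of Gnas, which encodes the stimulatory G-protein subunit that couples hormone receptors to cAMP, luteinizing hormone signalling in Leydig cells included. miR-483 lies in Igf2, the gene of a fetal growth factor. miR-335 lies in Mest, and miR-675 is cut from the non-coding RNA H19. From each hairpin a 5p and a 3p strand can be loaded into Argonaute, and bases 2 to 8 of the loaded strand, the seed, lead target recognition.

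The mature sequences of the 5 miRNAs on which the results turn are shown 5′ to 3′ with the seed in capitals, as given by RefSeq for the rat assembly GRCr8.
miR-296-5p: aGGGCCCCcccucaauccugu
miR-296-3p: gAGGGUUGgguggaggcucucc
miR-298-5p: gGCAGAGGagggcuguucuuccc
miR-298-3p: aGGAACUAgccuucucucugcu
miR-483-3p: cACUCCUCcccucccgucuugu

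In GRCr8 the hairpin of Mir296 is at chr3:183470069-183470146 and that of Mir298 at chr3:183470522-183470603, both on the minus strand and separated by 375 bases. The RefSeq gene table places neither inside another gene, and the next gene after Mir298 is Gnas. Mir483 (chr1:207247859-207247931, minus strand) lies within the bounds of Igf2, and Mir675 within those of H19. The table gives gene bounds only, so exons and introns were not told apart. RefSeq sequences were found for 6 of the 7 miRNAs, all but miR-335. Their 6 seeds all differed, and 0 of the other known miRNAs with a sequence (492 of 539 known miRNAs matched by name) carried any of them. The strands were rich in G and C. miR-296-3p held 68.2% G and C, miR-296-5p 66.7%, miR-298-5p 65.2%, miR-483-3p 63.6%, miR-483-5p 54.5% and miR-298-3p 50.0%, where the median of the 492 was 46.4%. miR-296-5p also carries a run of 7 C, and 2 of the 492 sequences, itself included, hold a run of a single base this long.

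The values are in CPM, read counts scaled to a common total over the listed miRNAs of each library. The libraries held from 305476 to 549446 such reads, so 1 read was worth between 1.82 and 3.27 CPM. Spearman correlations across miRNAs, which are not independent replicates, were between 0.893 and 0.918 for libraries of the same group and between 0.889 and 0.914 for libraries of different groups. The 10 germ-cell markers, such as miR-34c and the X-linked miR-741 and miR-743, were all listed and summed to between 368688 and 417158 CPM. The summed markers of Sertoli cells (miR-202) and of endothelium (miR-126a) did not overlap between groups and were higher in diabetes. The Sertoli sum was 4102 to 4467 CPM in diabetic against 3262 to 3693 CPM in normal libraries. The endothelial sum was 11722 to 13783 against 8662 to 11086 CPM. Most of the Sertoli sum was miR-202-5p, at 3977 to 4322 against 3103 to 3575 CPM. In the limma fit described below its log2 change was 0.30 (SE 0.10). That of miR-202-3p was -0.18 (SE 0.23), so the higher Sertoli sum rested on the 5p strand. The liver miRNA miR-122-5p was lower, at 936 to 1372 against 1839 to 2786 CPM. Red-cell, smooth muscle, striated muscle, neuronal, leukocyte and epithelial markers overlapped. The part of these differences in the results was not tested, and in whole tissue a change in the number of cells of a type cannot be told apart from a change in RNA per cell.

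The miRNAs of the Gnas locus supplied nearly all of the signal. Over the 6 libraries the 7 miRNAs took 0.152% of reads, and 98.4% of these came from miR-296 and miR-298. miR-296-5p ranked 87th by mean level among the 539 known miRNAs, with 925 CPM, followed by miR-298-5p at rank 130 (339 CPM), miR-296-3p at rank 147 (190 CPM) and miR-298-3p at rank 207 (53.3 CPM). miR-335 stood at rank 279 with 15.8 CPM and miR-483-3p at rank 334 with 8.17 CPM. The order of the Gnas strands was the same in each library. miR-335 was above miR-483-3p in every library except normal replicate 1, where both stood at 6.8 CPM. The 4 Gnas strands together held from 0.128% to 0.169% of the reads of a library. For comparison, 61 listed strands of the Dlk1-Dio3 cluster together held from 0.148% to 0.224%. The most abundant of those, miR-127-3p, averaged 780 CPM, and 0 of the 61 averaged more than miR-296-5p. CPM has no length term, and strands can be captured with unequal efficiency, so an order of levels is one of sequenced reads.

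Diabetic and normal testes were compared for all 578 miRNAs that had at least 1 CPM in at least 3 libraries, with limma on log2(CPM + 1) and Benjamini-Hochberg adjustment over all of them. Of the 7 miRNAs described here 6 entered the test, each with reads in all 6 libraries, and miR-483-5p did not. The adjusted p was under 0.05 for 0 of the 6, as for 0.0% of all miRNAs tested. With edgeR or DESeq2 on the recovered reads it was also 0 of the 6. At an unadjusted p under 0.05 there were 2 of the 6, miR-296-5p and miR-298-3p, both higher in diabetes, where 8.82% of all miRNAs tested passed, 5.54% as higher and 3.29% as lower. Groups did not overlap for 3 of the 6, against 14.9% of all miRNAs tested. Of these, miR-296-5p and miR-298-3p were higher (7.96% of all) and miR-483-3p was lower (6.92% of all). The rule used in the study, a log2 change of at least 1 with a p under 0.05 (taken here as unadjusted), was met by 0 of the 6 and by 4.67% of all. The 4 Gnas strands had at least 10 reads in every library. Among the 257 miRNAs of that depth, 9.34% had an unadjusted p under 0.05 and 18.3% had groups that did not overlap, against 2 of the 4 in each case. The log2 change was above 0 for 4 of the 6, against 50.5% of all, and its median was 0.09 over the 6 and 0.0046 over all 578. These counts come from few miRNAs, of which 4 share a locus.

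**Figure D1:**
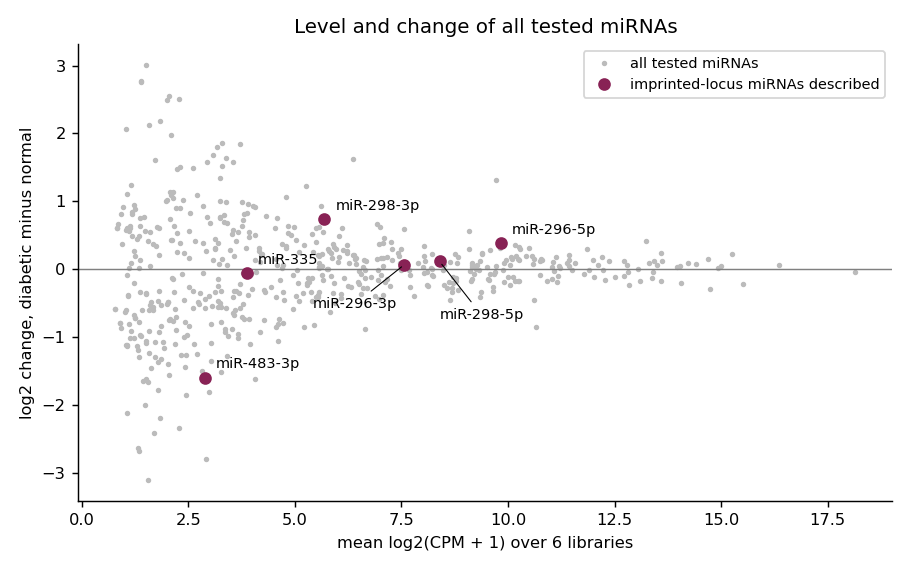
Change in diabetes (diabetic minus normal, log2(CPM + 1) scale) against mean level for the 578 tested miRNAs (grey) with the 6 imprinted-locus miRNAs marked. miR-296-5p lies at 0.39 among abundant miRNAs, whose changes are small, while miR-483-3p at -1.59 lies among scarce miRNAs, whose changes spread widely.

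miR-296-5p, the main strand of its hairpin and known as an endothelial miRNA in tumour vessels, was the most abundant of the set. It stood at 1047.5, 1042.9 and 1048.3 CPM in diabetic replicates 1, 2 and 3 and at 693.5, 828.3 and 886.6 CPM in normal replicates 1, 2 and 3. Every diabetic library was above every normal library. The reads behind these values were 320, 388 and 576 in diabetic and 306, 408 and 470 in normal libraries. The means were 1046 ± 2.91 CPM and 803 ± 99.0 CPM (SD, n = 3 each). On the log2(CPM + 1) scale this was a change of 0.39 (SE 0.13, 95% interval from 0.12 to 0.66), or 1.31-fold with an interval from 1.08 to 1.58. The summed levels of endothelial miR-126a and of Sertoli-cell miR-202 were also higher in the diabetic libraries, and liver miR-122-5p was lower. The log2 change was 0.41 (SE 0.11; limma adjusted p = 0.348, unadjusted 0.00255) for miR-126a-3p. For miR-126a-5p it was 0.13 (95% interval from -0.12 to 0.39). It was 0.30 (SE 0.10) for miR-202-5p and -0.18 (SE 0.23) for miR-202-3p. The part of these in the difference was not tested. For miR-296-5p the adjusted p in limma was 0.348 (unadjusted 0.00843, the 12th smallest of the 578), so the difference did not pass the threshold. The exact permutation test, two-sided, gave p = 0.1, the smallest that 3 against 3 allows.

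The 3 diabetic values of miR-296-5p lay closer together than their reads would lead one to expect. Their SD was 2.91 CPM against a counting SD of 52.1 CPM, so it understates the error of the diabetic mean. Single-library 95% Poisson intervals, which cover counting error only, ran from 936 to 1169 CPM in diabetic replicate 1 and from 808 to 970 CPM in normal replicate 3, and these overlapped. In the normal group the SD of 99.0 CPM was above the counting SD of 40.5 CPM. Normal replicate 1, the lowest, weighed most. Without it the log2 change was 0.29 with an unadjusted limma p of 0.0522, and estimating the spread without the mean-variance trend gave an unadjusted p of 0.0653. Adjusted p-values in its 17 alternatives ran from 0.299 to 0.741.

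The opposite strand, miR-296-3p, showed no such separation. It stood at 203.0, 169.3 and 211.1 CPM in the diabetic libraries and at 188.1, 213.2 and 156.6 CPM in the normal ones. The groups overlapped throughout. Means were 194 ± 22.2 and 186 ± 28.4 CPM (SD, n = 3 each), on 62 to 116 reads per library. The log2 change was 0.07 with a 95% interval from -0.36 to 0.50 (limma adjusted p = 0.874; exact permutation p = 0.7). That interval includes the change of miR-296-5p, and its direction turned without normal replicate 3.

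**Figure D2:**
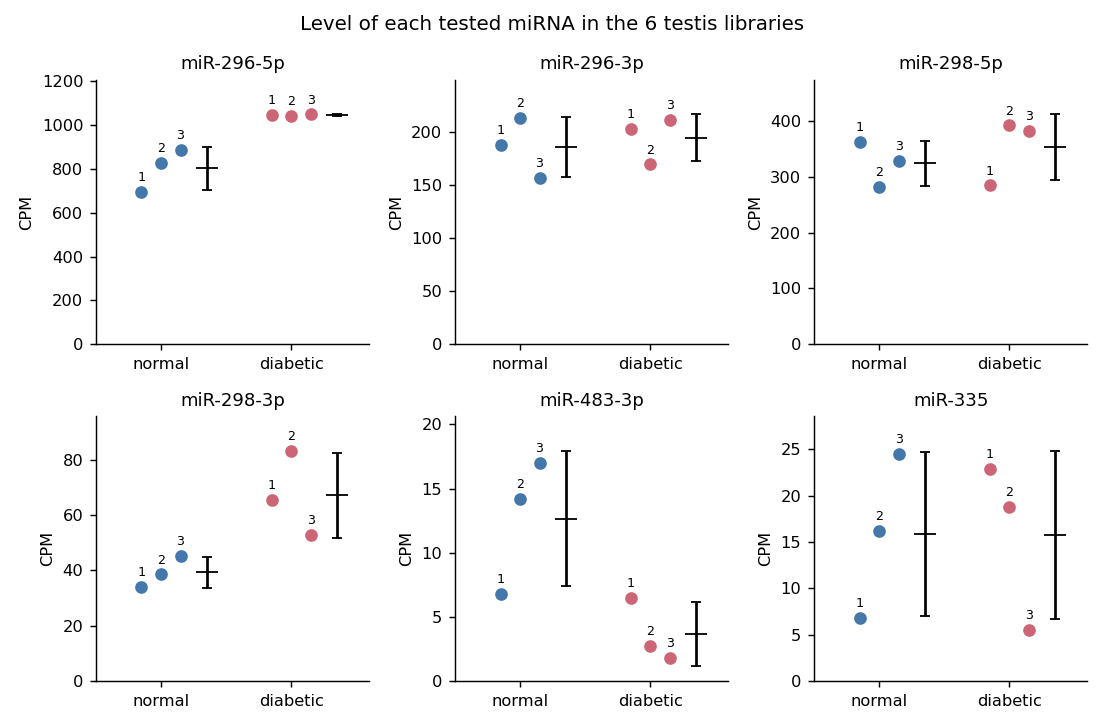
CPM of the 6 tested miRNAs in each library (dots, numbered by replicate), with mean and SD of each group of 3 in black; each panel has its own axis from 0. The diabetic libraries of miR-296-5p lie at 1042.9 to 1048.3 CPM above all normal ones, miR-298-3p is also separated, and miR-296-3p, miR-298-5p and miR-335 overlap.

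For miR-298, whose hairpin is next to that of miR-296, the strand that separated the groups was the minor 3p strand. miR-298-3p stood at 65.5, 83.3 and 52.8 CPM in the diabetic group and at 34.0, 38.6 and 45.3 CPM in the normal group. All diabetic values were higher, although diabetic replicate 3 and normal replicate 3 differed by a few reads' worth. The reads were 20, 31 and 29 against 15, 19 and 24. Means were 67.2 ± 15.3 and 39.3 ± 5.68 CPM (SD, n = 3 each). This was a log2 change of 0.74 (SE 0.34, 95% interval from 0.03 to 1.46), or 1.68-fold with an interval from 1.02 to 2.75 (limma adjusted p = 0.492, unadjusted 0.0425; exact permutation p = 0.1). The SD was near that of counting in diabetes (13.3 CPM) and below it in the normal group (8.96 CPM). Of its 17 alternatives, 7 had an unadjusted p under 0.05. Without diabetic replicate 2, the highest, the unadjusted p in limma was 0.145 at a log2 change of 0.58, and without diabetic replicate 1, normal replicate 1 or normal replicate 2 it was 0.0744, 0.0953 and 0.0701. Adjusted p-values over these alternatives ran from 0.367 to 0.839.

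miR-298-5p, the main strand, is known from mouse cells as a miRNA directed at the beta-secretase Bace1. It stood at 284.8, 392.4 and 382.2 CPM in the diabetic group and at 362.6, 282.2 and 328.2 CPM in the normal group. Diabetic replicate 1 was among the lowest, and the groups overlapped. Means were 353 ± 59.4 and 324 ± 40.3 CPM (SD, n = 3 each), from 87 to 210 reads per library, with a log2 change of 0.12 and a 95% interval from -0.26 to 0.50 (limma adjusted p = 0.831; exact permutation p = 0.5). Its SD was larger than the counting SD in both groups, which was 29.9 and 25.9 CPM. The log2 change moved to 0.26 without diabetic replicate 1 and to 0.20, 0.05, 0.03 and 0.019 without normal replicate 1, diabetic replicate 3, diabetic replicate 2 and normal replicate 2.

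**Figure D3:**
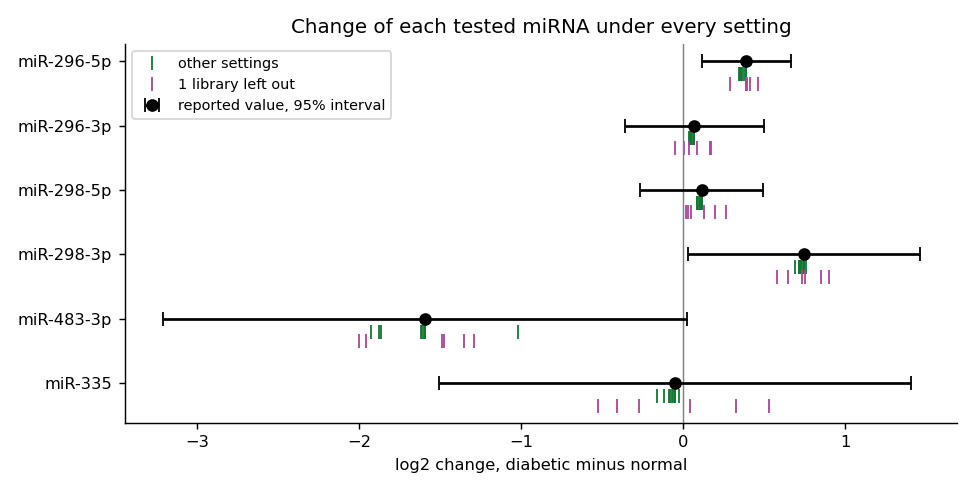
log2 change (diabetic minus normal) of the 6 tested miRNAs with its 95% interval in limma (black), the same value under other settings (green) and with 1 library left out (purple). The interval excludes 0 for miR-296-5p and miR-298-3p before adjustment, and leaving out a library moves miR-335 from -0.53 to 0.53.

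Since strands of 1 hairpin are transcribed together, the share of 5p reads sets them against each other, and it does not depend on the library total. Capture can differ between strands, so this is a share of sequenced reads, and which strand is kept was not measured. The 5p strand gave most of the reads of both Gnas hairpins. For miR-296 it took 83.8%, 86.0% and 83.2% of the reads of both arms in diabetic and 78.7%, 79.5% and 85.0% in normal libraries. Normal replicate 3 lay within the diabetic range. Means were 84.3% ± 1.49 and 81.1% ± 3.43 (SD, n = 3 each; exact permutation p = 0.3). For miR-298 it took 81.3%, 82.5% and 87.87% in diabetic and 91.4%, 87.97% and 87.88% in normal libraries. Diabetic replicate 3 and normal replicate 3 were level, and the 95% Wilson intervals of these shares, from 83.1% to 91.4% and from 82.6% to 91.7%, almost coincided. Means were 83.9% ± 3.50 and 89.1% ± 2.03 (SD, n = 3 each), a difference of -5.20 percentage points with an exact permutation p of 0.1. With 1 CPM added to each arm the groups overlapped and the p was 0.2. The 5p share thus had a higher mean in diabetes for miR-296 and a lower one for miR-298, and neither difference can reach a p under 0.1 with 3 libraries a group.

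**Figure D4:**
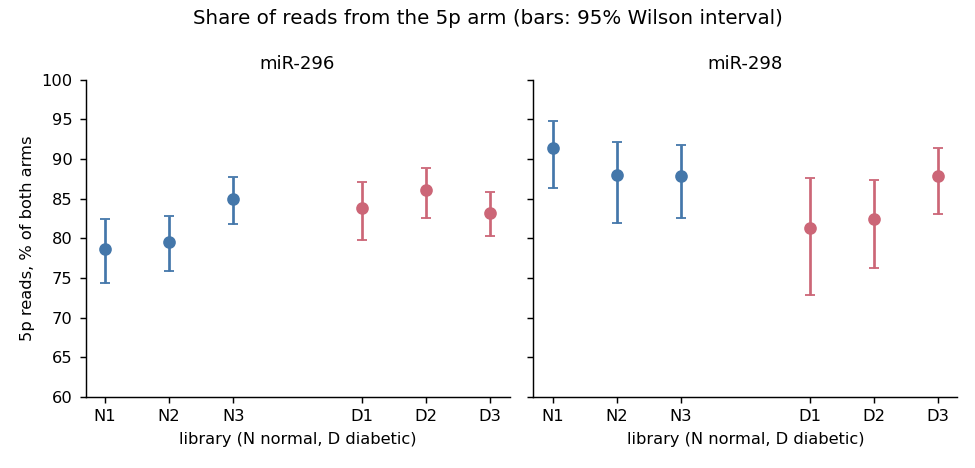
Share of 5p reads among the reads of both arms in each library for miR-296 and miR-298, with 95% Wilson intervals; the axis runs from 60% to 100%. Intervals of most libraries overlap across groups, and diabetic replicate 3 of miR-298 lies with the normal libraries.

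Both strands of a hairpin were also summed, as a description. miR-296 summed to 1250.5, 1212.2 and 1259.4 CPM in the diabetic group and 881.6, 1041.5 and 1043.2 CPM in the normal group, which did not overlap. miR-298 summed to 350.3, 475.7 and 435.0 CPM against 396.6, 320.8 and 373.5 CPM, which did. The ratio of summed miR-296 to summed miR-298 ran from 2.55 to 3.57 in diabetic and from 2.22 to 3.25 in normal libraries, and these ranges overlapped.

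miR-483 of the Igf2 gene was scarce. miR-483-3p, known for targeting the pro-apoptotic Bbc3, stood at 6.5, 2.7 and 1.8 CPM in the diabetic group and 6.8, 14.2 and 17.0 CPM in the normal group. These values stand for 2, 1 and 1 reads against 3, 7 and 9. The groups did not overlap in CPM, but diabetic replicate 1 and normal replicate 1 differed by 1 read. Means were 3.67 ± 2.49 and 12.7 ± 5.27 CPM (SD, n = 3 each). Pooled over libraries, 4 diabetic and 19 normal reads give a ratio of 0.251 with an exact 95% counting interval from 0.0621 to 0.756, which leaves out the variation between libraries. On the log2(CPM + 1) scale the change was -1.59 (SE 0.76, 95% interval from -3.21 to 0.03; limma adjusted p = 0.551, unadjusted 0.0534; exact permutation p = 0.1). Of its 16 alternatives, 6 had an unadjusted p under 0.05, among them those without diabetic replicate 1 (0.026 in limma) and without normal replicate 1 (0.0376 in limma). The size of the change depended on the pseudocount, with -1.86 at 0.1 and -1.02 at 5, where the 95% interval ran from -1.99 to -0.047 (unadjusted p in limma 0.0409). Adjusted p-values over the 16 ran from 0.470 to 0.849. A difference was not established at this depth.

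miR-483-5p had 1 read, in diabetic replicate 3, and 0 reads in the other libraries, which at 3 reads allows levels of up to 6.80 CPM in normal replicate 1 and 9.82 CPM in diabetic replicate 1. No fold is given. Among the 24 reads of this hairpin 23 came from the 3p strand, the reverse of the strand order in miR-296 and miR-298. Its 5p share could not be compared between groups on so few reads (exact permutation p = 1.0). With 1 CPM added to each arm, an amount near the values themselves, the exact permutation p was 0.1.

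miR-335, encoded within Mest, stood at 22.9, 18.8 and 5.5 CPM in the diabetic group and 6.8, 16.2 and 24.5 CPM in the normal group, from 7, 7 and 3 reads against 3, 8 and 13. Low and high libraries occurred in both groups. The means were almost equal, 15.7 ± 9.10 and 15.8 ± 8.86 CPM (SD, n = 3 each), with a log2 change of -0.05 and a 95% interval from -1.51 to 1.41 (limma adjusted p = 0.974; exact permutation p = 0.9). The interval spans changes from 0.352-fold to 2.65-fold, so changes within that range were not excluded. The SD of both groups was above that of counting, 6.72 and 5.62 CPM. Its direction turned without diabetic replicate 3, normal replicate 2 or normal replicate 3, to log2 changes of 0.53, 0.04 and 0.33.

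The miRNAs nearest in level or in profile place these values among the others. Next to miR-296-5p in mean level stood miR-1b (950 CPM) and miR-328a-3p (911 CPM). miR-1b averaged 945.5 CPM in diabetes and 954.3 CPM in the normal group, a log2 change of -0.01 (SE 0.14). miR-328a-3p averaged 1013 CPM in diabetes and 810 CPM in the normal group. Its log2 change of 0.31 (SE 0.14) was close to that of miR-296-5p, and that of miR-1b was not. Likeness of profile was measured as the root mean square difference of log2(CPM + 1), each miRNA centred on its own mean over the 6 libraries, among the 227 known miRNAs that no library held at fewer than 10 reads. The profiles nearest to miR-296-5p were those of miR-9a-3p (difference 0.061) and miR-26b-5p (0.071), at 199 against 163 CPM and 1378 against 1098 CPM in diabetic and normal means. Nearest to miR-298-3p were let-7d-3p (0.158), at 232 against 155 CPM, and miR-296-5p itself (0.262). miR-296-3p was closest to miR-1b (0.065) and miR-143-3p (0.078), and miR-298-5p to miR-3068-3p (0.121) and miR-34a-5p (0.135). Neither strand of a hairpin was among the nearest profiles of its partner strand.

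Most strands described here are GC-rich, and the changes were also read by GC content. Of the known miRNAs tested, 35 had a GC content of at least 60% and their median log2 change was -0.07, while 363 with less had a median of 0.01.

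Another imprinted miRNA locus, the Dlk1-Dio3 cluster, was read in the same fit through a list of names that does not hold all of its miRNAs. Of the 61 listed strands 43 entered the test, and 23 had a higher and 20 a lower mean log2 level in diabetes, with a median log2 change of 0.16 that turned to -0.09 with a pseudocount of 0.1 and to -0.04 without diabetic replicate 3. The median over all 578 was 0.0046 in the main fit. The adjusted p in limma was under 0.05 for 0 of the 43, and the unadjusted p for 2, 1 higher and 1 lower. Over all 578 miRNAs these shares were 0.0% and 8.82%, 5.54% as higher and 3.29% as lower. DESeq2 and edgeR on the recovered reads also gave 0 adjusted and 2 unadjusted, where 39 and 55 of all 578 had an unadjusted p under 0.05. With every tabled miRNA whose RefSeq gene lies between the outermost listed ones, a choice made after seeing the data, 4 were added (both strands of miR-337, miR-3543 and miR-6331) and 44 were tested. Of these 23 were higher and 21 lower, 0 had an adjusted p under 0.05 and 3 an unadjusted one, 1 higher and 2 lower. The added one was miR-337-5p, at a log2 change of -1.85 (SE 0.87; limma adjusted p = 0.551, unadjusted 0.0498).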

How the data were processed

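Small RNA of 6 testis libraries was sequenced; per the study's methods the authors trimmed single-end reads, counted the small RNAs found, assigned them to miRBase families and computed CPM. The deposited CPM values are rounded to 1 decimal and headed TPM, but carry no length term. The submitters' processing notes name Bowtie 0.12.2, HISAT2 2.0, StringTie 1.3.0 and the mouse build mm8, with no role; the build used for these rat miRNAs, and how reads matching several miRNAs were shared, are not given in the sources used here. The labels' extraction text describes poly(A) mRNA libraries and adipose tissue; the series design and methods, which name testis miRNA, were followed.

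From the deposited CPM, whole reads were recovered with the smallest library total that made every value whole within rounding, which held for 100% of values. The study screened with DESeq; as the values are CPM, limma 3.58.1 in R 4.3.3 (lmFit, eBayes with trend) on log2(CPM + 1) was the main test over 578 miRNAs, two-sided, without covariates. edgeR 4.0.16 and DESeq2 1.42.0 on recovered reads were alternatives, with other pseudocounts (0.1, 5), filters, scalings, no trend, a replicate block and each library left out. Group means of log2(CPM + 1) for each miRNA, and of each 5p share, were also compared by exact permutation of the 6 libraries (scipy 1.17.1). The fits were tested on simulated data with planted changes larger than those reported here from the main fit. Their power for smaller changes was not tested. All miRNAs matching the name rule are described, and miRNAs sharing a seed with them were looked up. Those next in mean CPM are given for miR-296-5p, and the 2 nearest profiles for the 4 Gnas strands. The members and lists were chosen with earlier results of these data known. RefSeq tables of GRCr8 supplied names and sequences.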

Additional observations from a re-analysis of the deposited data

How the results depend on the processing

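No alternative gave any of the 6 tested miRNAs an adjusted p under 0.05. The number with an unadjusted p under 0.05 was 2 in limma and 1, miR-296-5p, by DESeq2 (Wald), with upper-quartile factors and under the replicate block. Of all 578 miRNAs, 51 passed in limma and 39, 47 and 44 in these other runs in turn. Leaving out 1 library gave 1 to 2, where 38 to 51 of all miRNAs passed, with 542 to 559 tested. Which of the 6 passed changed: miR-483-3p took the place of miR-298-3p with a pseudocount of 5, DESeq2 size factors, edgeR or without diabetic replicate 1, and of miR-296-5p without the trend, and it was alone without normal replicate 1. Same-numbered libraries are not stated to be paired, and their deviations correlated at 0.0065, -0.07 and -0.09 over 257 miRNAs. 0 of the 6 libraries correlated best with its own number, so the block pairs libraries by number alone. Over all 578 miRNAs, 0 had an adjusted p under 0.05 (51 unadjusted) in limma. That became 8 without the trend, 2 with edgeR, and 1 with DESeq2, a pseudocount of 5, upper-quartile factors or the replicate block. It was also 1 of 721 without the filter and 1 of the 257 with at least 10 reads in every library. Leaving out 1 library gave 0 to 2. The cause was not tested. Scaling by DESeq2, TMM or upper-quartile factors moved the median of all miRNAs from 0.0046 to -0.03, -0.02 and -0.0073.

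The log2 change of miR-296-5p, miR-298-3p and miR-483-3p had the same sign in every alternative run. That of miR-298-5p did too, but ranged from 0.019 to 0.26 with 1 library left out. With 1 library left out miR-296-3p ranged from -0.049 (without normal replicate 3) to 0.17, and miR-335 ranged from -0.53 to 0.53 with 1 library left out. The 5p share differed by 2.09 to 5.25 percentage points for miR-296 and by -7.19 to -3.91 for miR-298 with 1 library left out. For miR-483, on 24 reads, it differed by 0 to 25.0. Of the 43 listed Dlk1-Dio3 strands tested, 1 had an adjusted p under 0.05 without the trend, against 8 of all 578. The number with an unadjusted p under 0.05 ran from 2 to 4 with 1 library left out. The 4 were of 40 tested without normal replicate 2, where 44 of all 555 miRNAs passed. miR-335 and miR-483 had at most 13 reads in any library, and the spread of miR-335 was also above that of counting.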
